A study of Homo sapiens with 4 samples.

Results

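The 9 genes described here encode transcription factors of the endoderm, the germ layer of liver, pancreas, stomach and gut. They are the forkhead factors FOXA1, FOXA2 and FOXA3, the nuclear receptors HNF4A and HNF4G, and SOX17, PDX1, ONECUT1 and PROX1. The genes were listed by name and found by Ensembl identifier, and all 9 were among the 60234 genes of the read count table. The cells came from the NKX2.5:GFP hESC line, a human embryonic stem cell line with eGFP in 1 NKX2-5 allele and a wild-type second allele, and every library carries this reporter. Cultures were driven to the cardiac lineage as spin embryoid bodies with a cytokine cocktail, and received 1 µM retinoic acid (RA) or DMSO, its solvent (CTR), from day 4 to day 7. At day 31 they were sorted by GFP, giving 4 libraries, RA GFP-positive, CTR GFP-positive, RA GFP-negative and CTR GFP-negative, with 1 library per condition. No difference between conditions therefore has a replicate check, and RA and a difference between the separate cultures cannot be told apart. The libraries held 28125727, 28643091, 26222787 and 4371101 reads in that order, so that CTR GFP-negative was the shallowest.

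Reads were scaled to CPM, the reads per 1000000 reads of the library, with TMM factors, and differences are given on the log2(CPM + 1) scale, which understates the change of low genes. A ratio of CPM carries a Clopper-Pearson 95% interval and a level an exact Poisson 95% interval. Both cover counting error only. A gene without reads may hide up to 3 reads, which is 0.639 CPM in CTR GFP-negative and between 0.105 and 0.117 CPM in the other libraries. Genes with at least 4 reads in either library of a pair were compared, and a gene was called when it was at least 2-fold apart on the log2(CPM + 1) scale.

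As background, the FOXA proteins are pioneer factors that open chromatin at endoderm genes, and HNF4A, a nuclear receptor, drives the genes of liver and gut epithelium. SOX17 is needed for early definitive endoderm but also marks blood vessel cells, PDX1 specifies pancreas and duodenum, and ONECUT1 (HNF6) acts in liver and pancreas. PROX1 acts in hepatoblasts, and also in heart muscle and lymphatic endothelium.

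Because several of these genes were higher in the same library, their RefSeq promoter windows (GRCh38.p14) are shown for those the results turn on. The windows hold the 250 bases before each start, written 5′ to 3′ on the gene's strand, and 4 of the 9 genes had an entry, FOXA1, FOXA3, HNF4A and ONECUT1. HNF4A has 2 starts that lie 45540 bases apart, of which the upstream one is used mainly in pancreas and the downstream one in liver. LINC00261, a long noncoding RNA next to FOXA2, is added because it was high beside FOXA2 in RA GFP-negative cells. Both strands were searched for TGTTTNC (forkhead element), GTTAAT (HNF1 half-site), CAAAGT (HNF4 core), AGGTCA (nuclear receptor half-site) and TATAAA, and capitals mark the matches. Half-sites are parts of full binding sites, which were not searched for.
HNF4A upstream start, chr20:44355449-44355698, plus strand: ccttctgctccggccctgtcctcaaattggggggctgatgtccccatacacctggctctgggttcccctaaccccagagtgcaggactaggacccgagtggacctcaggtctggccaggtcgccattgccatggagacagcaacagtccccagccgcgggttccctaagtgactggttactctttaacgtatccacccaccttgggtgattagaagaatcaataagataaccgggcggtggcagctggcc
HNF4A downstream start, chr20:44400989-44401238, plus strand: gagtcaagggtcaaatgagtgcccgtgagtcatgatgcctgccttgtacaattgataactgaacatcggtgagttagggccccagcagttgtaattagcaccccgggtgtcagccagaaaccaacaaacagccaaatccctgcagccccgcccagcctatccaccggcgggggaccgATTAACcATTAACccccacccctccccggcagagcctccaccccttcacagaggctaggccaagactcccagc
FOXA1, chr14:37595250-37595499, minus strand: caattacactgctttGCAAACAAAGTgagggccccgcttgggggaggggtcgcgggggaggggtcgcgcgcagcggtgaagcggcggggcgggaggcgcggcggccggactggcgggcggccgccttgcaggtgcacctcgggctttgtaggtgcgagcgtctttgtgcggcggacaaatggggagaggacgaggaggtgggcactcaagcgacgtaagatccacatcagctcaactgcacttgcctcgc
LINC00261, chr20:22578643-22578892, minus strand: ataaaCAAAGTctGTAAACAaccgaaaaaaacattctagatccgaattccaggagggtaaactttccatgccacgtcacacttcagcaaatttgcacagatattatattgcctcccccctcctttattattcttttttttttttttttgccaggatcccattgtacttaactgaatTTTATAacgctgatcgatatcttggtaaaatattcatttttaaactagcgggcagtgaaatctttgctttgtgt

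The downstream HNF4A window held 2 HNF1 half-sites in tandem, at bases -73 to -68 and -66 to -61 from the start. An HNF1 half-site stood in 6.23% of the 35116 promoter windows of this length. The upstream HNF4A window matched none of the 5 motifs. FOXA1 held a forkhead element at -235 to -229 that overlaps an HNF4 core at -230 to -225, and LINC00261 held an HNF4 core at -245 to -240, a forkhead element at -237 to -231 and a TATA match. The forkhead element occurred in 15.5% of all windows, the HNF4 core in 10.3%, the nuclear receptor half-site in 12.1% and TATAAA in 10.7%. FOXA3 held 1 nuclear receptor half-site and 1 TATAAA, and ONECUT1 had no match. Gene counts do not show which HNF4A start was used.

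The labelled sort was checked against 12 cardiomyocyte genes, which summed to 18520 CPM in RA GFP-positive and 22604 CPM in CTR GFP-positive cells, against 533 CPM and 1017 CPM in the GFP-negative libraries. All 12 were called higher in GFP-positive cells of either culture, and NKX2-5 itself had 12373 and 16991 reads in the GFP-positive and 250 and 68 in the GFP-negative libraries, RA first. The RNA is of mixed cells, and fewer cells of a type and less RNA per cell cannot be told apart.

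The question of the first comparison was how RA-treated and control GFP-negative cells differed. Both FOXA1 and FOXA2, both HNF4 genes, PDX1 and ONECUT1 were higher with RA, each by more than 4-fold on the log2(CPM + 1) scale. FOXA3 differed by less than 2-fold on that scale, though its ratio of CPM was 2.10 (1.13 to 4.31). SOX17 and PROX1 were slightly lower. In all, 6 of 9 genes were called higher and 0 lower, beside 6.43% higher and 5.63% lower among all 25190 genes compared. The median difference was 2.36 for the 9 genes and 0.16 for all genes. With genes lacking reads set at 3 reads and no pseudocount, the median of the 9 was 3.87. The 6 genes passed the limit of 4 reads through the RA library alone, so that this count describes the libraries. At 10 CPM or more in either library, 3 of 5 genes were called higher and 0 lower, beside 4.95% and 3.18% of 11606 genes. These 3 genes, FOXA1, HNF4A and PDX1, also reached 10 CPM in the RA library alone, so that this count has the same limit.

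**Figure D1:**
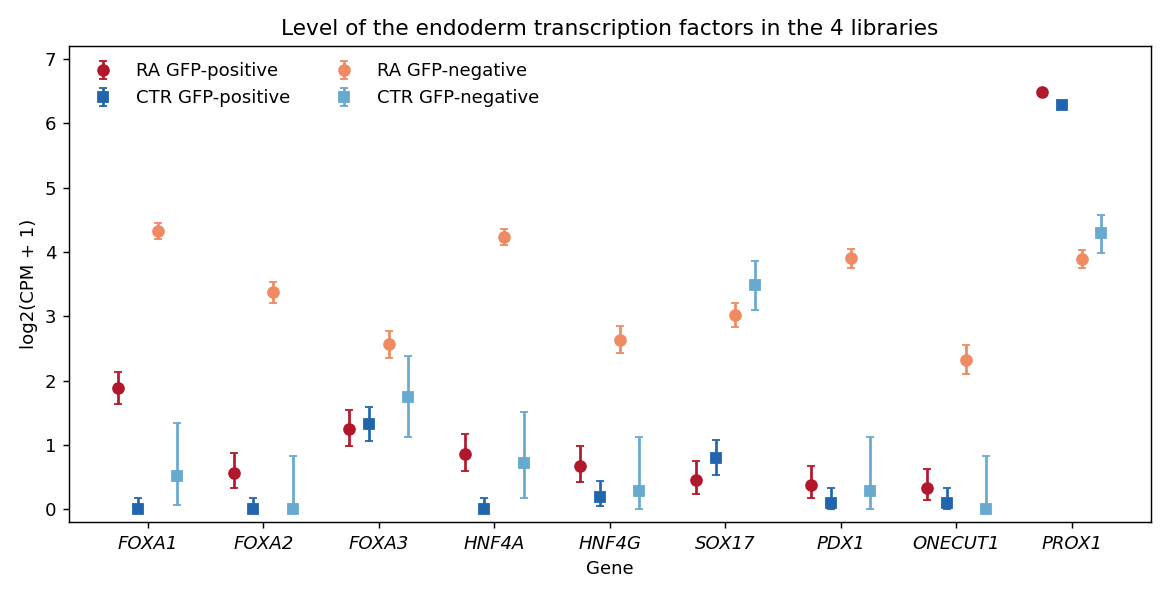
Level of each gene (x axis) as log2(CPM + 1) (y axis) in the 4 libraries, with exact Poisson 95% intervals as bars, 1 library per point. FOXA1, FOXA2, HNF4A, HNF4G, PDX1 and ONECUT1 were highest in RA GFP-negative cells, SOX17 in CTR GFP-negative cells and PROX1 in both GFP-positive libraries.

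FOXA1 (ENSG00000129514, chromosome 14 of GRCh37, 38058757 to 38065264, protein coding), a pioneer factor of foregut and gut epithelium, had 491 reads in RA GFP-negative and 2 in CTR GFP-negative cells, and 72 in RA GFP-positive and 0 in CTR GFP-positive cells. In GFP-negative cells its level was 19.1 CPM (interval 17.5 to 20.9) for RA and 0.426 CPM (0.0516 to 1.54) for CTR. The ratio was 44.9 (12.4 to 372) and the log2 difference 3.82, the 31st highest of the 25190 genes. FOXA1 was thus high in 1 library, low in RA GFP-positive cells and near or at 0 in both controls.

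FOXA2 (ENSG00000125798, chromosome 20, 22561636 to 22566093), a factor of early endoderm and of the floor plate of the neural tube, had 240 reads in RA and 0 in CTR GFP-negative cells. The GFP-positive libraries held 13 reads (RA) and 0 reads (CTR). The level of 9.35 CPM (8.21 to 10.6) was at least 14.6-fold higher than in CTR GFP-negative cells against a floor of 3 reads per library. Its neighbour LINC00261 (ENSG00000259974, chromosome 20, 22528301 to 22559280), which lies 2355 bases away on the same strand, had 240 and 0 reads in the GFP-negative and 5 and 5 in the GFP-positive libraries, RA first. Both were thus far highest in RA GFP-negative cells. The promoter window of LINC00261 printed above holds a forkhead element, as do 15.5% of all windows. A link between FOXA2 and LINC00261 was not tested.

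FOXA3 (ENSG00000170608, chromosome 19, 46367247 to 46377055), the member of the family best known from liver metabolism, behaved less sharply. It had 126 and 11 reads in RA and CTR GFP-negative cells, and 37 and 43 in RA and CTR GFP-positive cells. The ratio with RA in GFP-negative cells was 2.10 (1.13 to 4.31), with a log2 difference of 0.82, which ranked 2319th from the highest. FOXA3 was therefore the only FOXA gene with reads in all 4 libraries.

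HNF4A (ENSG00000101076, chromosome 20, 42984339 to 43061485) had 458 reads in RA GFP-negative and 3 in CTR GFP-negative cells, and 22 and 0 in RA and CTR GFP-positive cells. The level was 17.8 CPM (16.3 to 19.6) against 0.639 CPM (0.132 to 1.87), or 27.9-fold more (9.50 to 136), and the log2 values lay 3.52 apart. HNF4G (ENSG00000164749), a paralog expressed in gut and kidney epithelium, had 134 and 1 reads in RA and CTR GFP-negative cells, and 16 and 4 in RA and CTR GFP-positive cells. Its ratio in GFP-negative cells was 24.5 (4.33 to 976), and its log2 difference 2.36. The paralogs were thus high in the same library, although the interval of HNF4G is wide because it rests on 1 control read.

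PDX1 (ENSG00000139515, chromosome 13, 28494137 to 28500450) had 357 reads in RA GFP-negative and 1 in CTR GFP-negative cells, and 8 and 2 in RA and CTR GFP-positive cells. The ratio of 65.3 (11.7 to 2587) in GFP-negative cells was the highest among those of the 9 genes with reads in both libraries. It rests on 1 control read, and its interval overlaps those of FOXA1, HNF4A and HNF4G. The log2 difference was 3.62, below the 3.82 of FOXA1. ONECUT1 (ENSG00000169856, chromosome 15, 53047250 to 53083275) had 103 and 0 reads in RA and CTR GFP-negative cells, at least 6.28-fold higher against the floor, and 7 and 2 reads in RA and CTR GFP-positive cells. It was the lowest of the 6 genes with RA, at 4.01 CPM (3.28 to 4.87).

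SOX17 (ENSG00000164736) went another way. It had 183 reads in RA GFP-negative and 48 in CTR GFP-negative cells, and 10 and 21 in RA and CTR GFP-positive cells. The levels in GFP-negative cells were 7.13 CPM (6.14 to 8.24) with RA and 10.2 CPM (7.54 to 13.6) for CTR, giving a ratio of 0.698 (0.505 to 0.980) and -0.46 on the log2 scale. SOX17 was therefore present in both GFP-negative libraries and low in both GFP-positive ones, where a difference was not detectable at this depth (ratio 0.510, 0.215 to 1.13).

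Endothelial genes, which share the expression of SOX17 outside the endoderm, were also present in both GFP-negative libraries. Their 10 genes summed to 509 CPM (RA) and 413 CPM (CTR) in GFP-negative cells, and to 114 CPM (RA) and 91.3 CPM (CTR) in GFP-positive cells. EGFL7 alone gave most of the sums in GFP-positive cells, with 91.6 CPM (RA) and 71.2 CPM (CTR). In GFP-negative cells it gave 144 CPM (RA) and 80.9 CPM (CTR). With RA, 4 of the 10 were called higher in GFP-negative cells and 0 lower, with a median log2 difference of 0.81, beside 6.43% and 5.63% of all genes and their median of 0.16. ROBO4, a vessel guidance receptor, had 421 and 18 reads (ratio 4.28, 2.67 to 7.29), ERG, an endothelial ETS factor, had 418 and 32, and KDR, the VEGF receptor, had 3635 and 958 (ratio 0.694, 0.646 to 0.746). The part of endothelial cells in the SOX17 level was not tested.

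PROX1 (ENSG00000117707, chromosome 1, 214156524 to 214214853) was the only one of the 9 genes that was highest in GFP-positive cells. It had 2360 reads in RA GFP-positive and 2198 in CTR GFP-positive cells, or 88.2 CPM (84.7 to 91.9) and 76.7 CPM (73.5 to 80.0). The GFP-negative libraries held 355 reads (RA) and 87 reads (CTR), or 13.8 CPM (12.4 to 15.4) and 18.5 CPM (14.8 to 22.9). GFP-positive cells thus held 6.38-fold more than GFP-negative cells with RA (5.70 to 7.15) and 4.14-fold more in the control (3.34 to 5.19). Within the fractions the RA difference was small, with a ratio of 1.15 (1.09 to 1.22) in GFP-positive and 0.747 (0.589 to 0.955) in GFP-negative cells.

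The antisense gene PROX1-AS1 (ENSG00000230461, chromosome 1, 213991094 to 214161851) overlaps the start of PROX1 and shares 163 of its 8899 exon bases. It had 662 and 1000 reads in RA and CTR GFP-positive cells, a ratio of 0.709 (0.642 to 0.783), and 27 and 6 reads in RA and CTR GFP-negative cells. Like PROX1 it was higher in the GFP-positive libraries, but its RA ratio there was below 1 where that of PROX1 was above 1. Reads were counted without strand, so that the reads on shared bases are uncertain for both genes. Among lymphatic endothelial genes, LYVE1 had 522 reads in RA and 30 in CTR GFP-negative cells and 47 and 0 in RA and CTR GFP-positive cells, and FLT4 had 1395 and 98 in the GFP-negative and 60 and 16 in the GFP-positive libraries. The podoplanin gene PDPN was lower with RA in GFP-negative cells (ratio 0.493, 0.446 to 0.545), and 3 of the 5 lymphatic genes were called higher there and 1 lower, with a median log2 difference of 1.16, beside 6.43% and 5.63% of all genes and their median of 0.16. LYVE1, FLT4 and PDPN had a higher level in the GFP-negative library of either culture. CCL21, a lymphatic chemokine, was higher in the GFP-positive library, as PROX1 was, at 97.6 against 47.5 CPM for RA and 33.2 against 20.7 CPM for CTR, and RELN had 39.4 against 36.2 CPM for RA and 54.7 against 67.9 CPM for CTR.

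In GFP-positive cells fewer of the 9 genes were called on the log2(CPM + 1) scale. FOXA1 was the only gene called higher, with 72 reads against 0, at least 25.7-fold higher against the floor and a log2 difference of 1.88. Thus 1 of 9 genes was called higher and 0 lower, beside 3.35% higher and 1.40% lower among 26551 genes, with medians of 0.28 for the 9 genes and 0.0023 for all genes. FOXA1 and 4 others of the 9 (FOXA2, HNF4A, PDX1 and ONECUT1) passed the limit of 4 reads through the RA library alone. HNF4A (22 and 0 reads, at least 7.86-fold higher) and FOXA2 (13 and 0 reads, at least 4.64-fold higher) stayed below the 2-fold limit on the log2(CPM + 1) scale because of their low level, at 0.87 and 0.57. With genes lacking reads at 3 reads and no pseudocount, the median of the 9 genes was 2.10. HNF4G had a ratio of 4.29 (1.38 to 17.6). For PDX1, ONECUT1, FOXA3 and SOX17 the interval of the ratio held 1, so that a difference was not detectable.

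**Figure D2:**
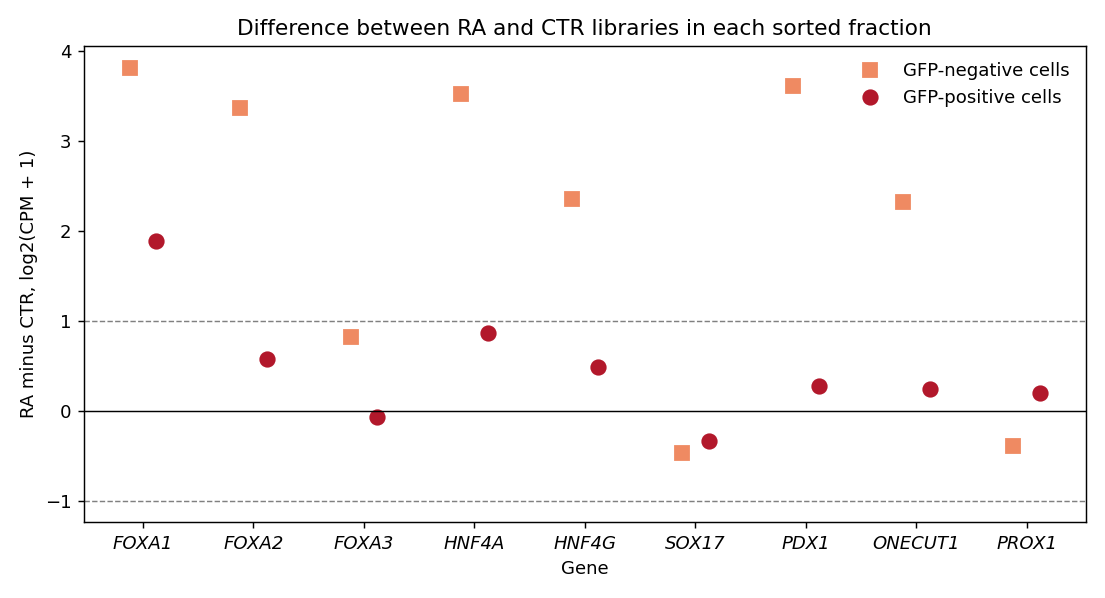
RA minus CTR difference in log2(CPM + 1) (y axis) for each gene (x axis), in GFP-negative cells (squares) and GFP-positive cells (circles), 1 library per condition, with the 2-fold limits as dashed lines. The 6 genes called higher in GFP-negative cells lie between 2.33 and 3.82, and in GFP-positive cells FOXA1 alone, at 1.88, passes the limit.

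The sign of the RA difference was not the same in both fractions for FOXA3 and PROX1. FOXA3 differed by 0.82 (log2) in GFP-negative and by -0.069 in GFP-positive cells, and PROX1 by -0.40 and 0.20. For FOXA3 the interval of the ratio in GFP-positive cells (0.922, 0.578 to 1.47) held 1, so that no opposite direction is shown for it. A lower difference than that of PROX1 was found for 18.6% of all genes compared in GFP-negative cells and for 69.9% in GFP-positive cells. With single libraries the gap between fractions could not be tested for either gene.

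The sort itself separated all 9 genes in the RA culture. FOXA1, FOXA2, FOXA3, HNF4A, HNF4G, SOX17, PDX1 and ONECUT1 were called lower in the GFP-positive library and PROX1 higher, so that 8 genes were lower and 1 higher, beside 9.29% lower and 6.74% higher among 27419 genes. PDX1 was 46.5-fold lower (23.3 to 109), HNF4A 21.7-fold (14.2 to 35.0), FOXA2 19.2-fold (11.0 to 36.7) and SOX17 19.1-fold (10.1 to 40.4). At 10 CPM or more in either library, 3 of 4 genes were called lower and 1 higher, beside 12.4% and 9.97% of 11850 genes, and the 3 lower genes reached 10 CPM in the GFP-negative library alone. The RA GFP-negative library also enters the comparison with its control, so that these values and those above share it.

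In the control culture only 4 of the 9 genes had at least 4 reads in either library. PROX1 was called higher and SOX17 lower in GFP-positive cells, beside 10.6% higher and 12.8% lower among 24925 genes. SOX17 was 13.9-fold lower (8.19 to 24.5). FOXA3, with 43 and 11 reads, and HNF4G, with 4 and 1, had ratios of 0.641 (0.325 to 1.38) and 0.655 (0.0649 to 32.3), whose intervals hold 1. FOXA1, FOXA2, HNF4A, PDX1 and ONECUT1 had at most 3 reads in either control library, which gives no fold.

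The level in RA GFP-positive cells can be set against that in RA GFP-negative cells. PDX1 reached 2.15% of the GFP-negative level (0.921% to 4.28%), HNF4A 4.61% (2.86% to 7.06%), FOXA2 5.20% (2.73% to 9.06%) and SOX17 5.24% (2.47% to 9.86%). FOXA1 reached 14.1% (10.8% to 18.05%) and FOXA3 28.2% (19.0% to 40.9%), both above the interval of HNF4A. HNF4G stood between, at 11.5% (6.37% to 19.3%), and ONECUT1 was at 6.52% (2.56% to 13.9%).

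Other genes with at least 100 reads in RA GFP-negative cells had shares over a wide range. The 14 secreted liver and yolk sac proteins of the same lineage ranged from 1.37% for FGG to 104% for F10, with AFP, the fetal plasma protein, at 4.86% (4.47% to 5.28%), SERPINA1 at 4.19% (3.74% to 4.69%), ALB at 13.8% (10.8% to 17.5%) and TF at 29.9% (21.6% to 40.9%). The 5 pluripotency genes ranged from 5.87% for DPPA4 to 14.3% for TDGF1 (9.31% to 21.2%), and the 10 endothelial genes from 1.98% for CLEC14A to 63.8% for EGFL7. The epithelial surface protein EPCAM was at 27.0% (25.03% to 29.02%), and it also had 456 reads in CTR GFP-positive cells, where FOXA1, FOXA2 and HNF4A had 0. The shares of the 8 factors other than PROX1 lay within both ranges, but the upper ends rest on F10 and TF and on EGFL7. The next highest were ALB at 13.8% among the secreted proteins and EMCN at 12.4% (10.1% to 15.3%) among the endothelial genes. FOXA3, at 28.2%, lay above both of these, and so did FOXA1, at 14.1%, with an interval that overlaps theirs. The part of GFP-negative cells carried through the sort in these values was not tested.

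**Figure D3:**
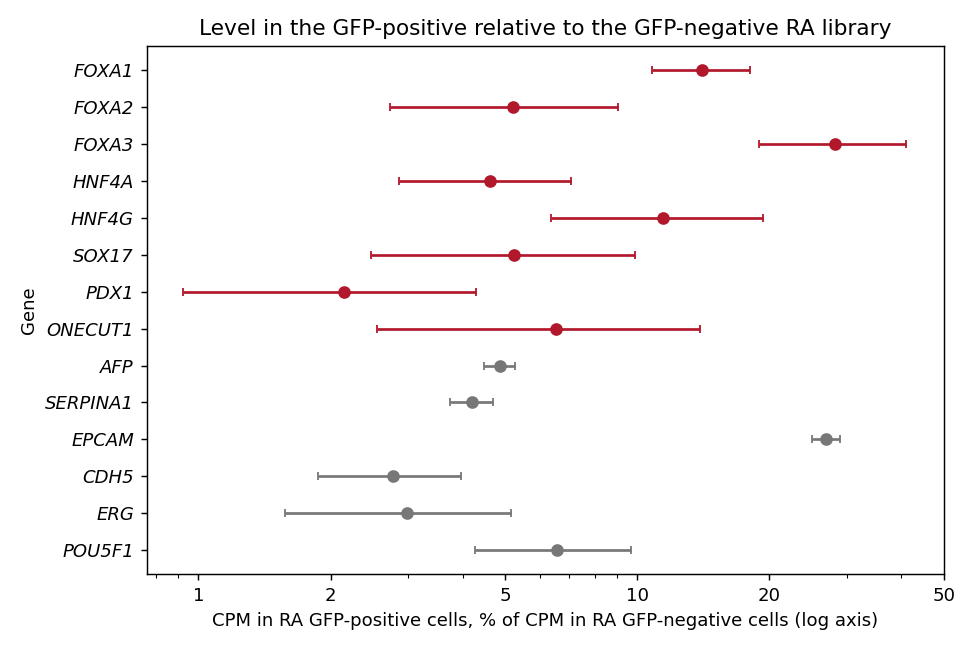
CPM in RA GFP-positive cells as a percentage of that in RA GFP-negative cells (x axis, log scale) for 8 endoderm factors (red) and, in grey, the liver proteins AFP and SERPINA1 and the markers EPCAM, CDH5, ERG and POU5F1, with Clopper-Pearson 95% intervals of the ratio. PDX1 lies lowest at 2.15% and FOXA3 highest at 28.2%. PROX1, at 638%, is left out.

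Levels of different genes can be compared only per length, here as CPM per kb of the exons that the GRCh37 annotation joins over all transcripts of a gene. In RA GFP-negative cells PDX1 was highest at 5.34 CPM per kb (4.80 to 5.93), followed by FOXA1 at 4.33 (3.96 to 4.74), FOXA2 at 3.44 (3.02 to 3.90), SOX17 at 3.04 (2.62 to 3.51), FOXA3 at 2.31 (1.92 to 2.75), HNF4A at 1.76 (1.60 to 1.92), PROX1 at 1.55 (1.40 to 1.73), HNF4G at 1.09 (0.912 to 1.29) and ONECUT1 at 0.657 (0.536 to 0.797). The intervals of FOXA2 and SOX17, of SOX17 and FOXA3, and of HNF4A and PROX1 overlap, and those of the other neighbours do not. Those of FOXA3 and HNF4A all but meet, at 1.92, so that their order is uncertain. HNF4A has 10167 joined exon bases, the most of the 9 genes, so that a shorter transcript in these cells would put its level higher.

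In the other libraries the order was different. CTR GFP-negative cells had SOX17 first at 4.36 CPM per kb (3.21 to 5.78), then PROX1 at 2.08 (1.67 to 2.57) and FOXA3 at 1.10 (0.550 to 1.97), whose interval overlaps that of PROX1. Both GFP-positive libraries had PROX1 first, at 9.92 CPM per kb (9.52 to 10.3) with RA and 8.62 (8.26 to 8.99) in the control. FOXA3 came second there, at 0.651 (0.458 to 0.897) and 0.706 (0.511 to 0.951), beside FOXA1 at 0.610 (0.477 to 0.768) with RA.

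Within the FOXA family the makeup thus differed between libraries. FOXA1, FOXA2 and FOXA3 gave 43.0%, 34.1% and 22.9% of the summed level per kb in RA GFP-negative cells, which was 10.1 CPM per kb. In RA GFP-positive cells the shares were 42.4%, 12.4% and 45.2% of 1.44 CPM per kb. FOXA3 gave 91.9% of 1.20 CPM per kb in CTR GFP-negative cells and 100% of 0.706 CPM per kb in CTR GFP-positive cells. The share in CTR GFP-negative cells rests on 11 reads of FOXA3, 2 of FOXA1 and 0 of FOXA2, whose intervals allow a far lower share. HNF4A and HNF4G summed to 2.84 CPM per kb in RA GFP-negative cells, of which HNF4A gave 61.7%, and to 0.206 CPM per kb in RA GFP-positive cells, of which it gave 39.3%. The shares of the HNF4 pair rest on 22 and 16 reads in RA GFP-positive cells and on 4 or fewer in the controls.

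**Figure D4:**
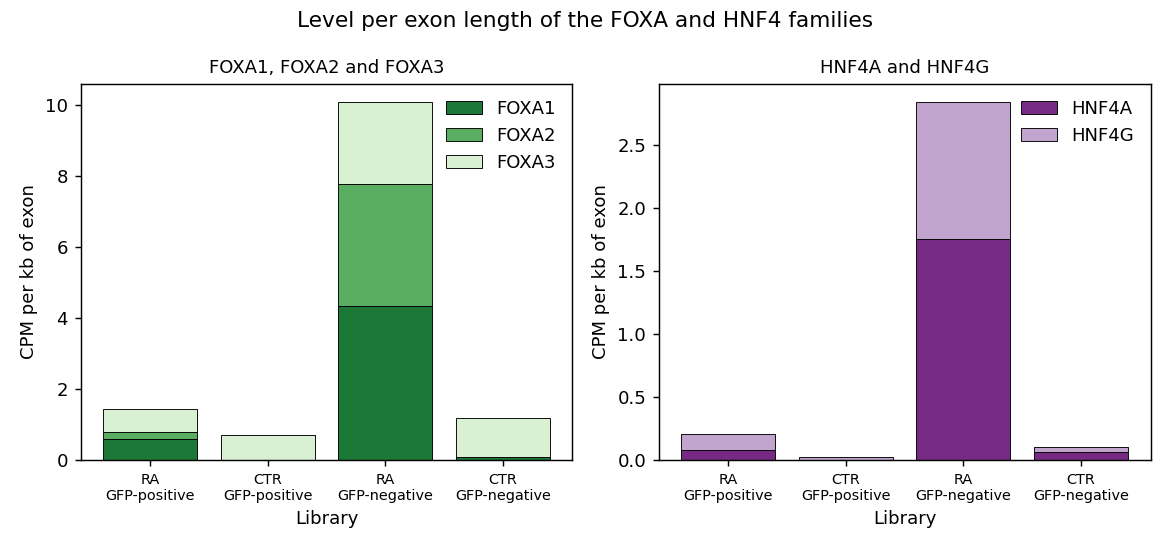
Summed level per exon length (y axes, CPM per kb, separate scales) of the FOXA genes (left) and the HNF4 genes (right) in the 4 libraries (x axes), with 1 colour per gene. The FOXA sum was 10.1 CPM per kb in RA GFP-negative cells and at most 1.44 in the other libraries, and FOXA3 made up 91.9% and 100% of it in the controls, on 11 and 43 reads.

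Other endoderm transcription factors were read beside these genes. Of 21 found in the table, 20 had at least 4 reads in either GFP-negative library, 13 were called higher with RA and 0 lower, and the median log2 difference was 1.55, or 2.18 with genes lacking reads at 3 reads and no pseudocount. ONECUT2, a paralog of ONECUT1, had 1113 and 7 reads (ratio 29.1, 14.1 to 72.5), and NR1H4, the bile acid receptor FXR, had 241 and 0, at least 14.7-fold higher. GATA4, which also acts in heart muscle, had 4914 and 1001 reads (ratio 0.898, 0.839 to 0.962). Of the 13, 8 passed the limit of 4 reads through the RA library alone, and all genes compared had 6.43% higher and 5.63% lower. In GFP-positive cells 1 of 16 of these factors was called higher and 0 lower, beside 3.35% and 1.40% of all genes, a share that rests on 1 gene.

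Secreted proteins of liver and yolk sac, many of which are bound by FOXA and HNF4 factors, were higher as well in GFP-negative cells, with 14 of 16 called higher and 1 lower and a median log2 difference of 3.12, beside 6.43% and 5.63% of all genes and their median of 0.16. Of the 14, 4 passed the limit of 4 reads through the RA library alone. AFP had 11921 and 14 reads and SERPINA1, the antitrypsin gene, 7347 and 16 (ratio 84.0, 51.7 to 147). TTR, the thyroxine carrier, was lower with RA, at 11.7 CPM against 73.0 CPM (ratio 0.160, 0.136 to 0.187). Besides liver, TTR is made in the choroid plexus and the eye. Epithelial adhesion and keratin genes had 5 of 11 called higher and 0 lower, a median of 0.87, and CLDN4 at 6553 and 95 reads and EPCAM at 3267 and 85.

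FOXA2 also marks the floor plate, and SHH, a signal of floor plate and gut epithelium alike, had 630 and 0 reads in RA and CTR GFP-negative cells, at least 38.4-fold higher. Of 6 floor plate genes compared, 1 was called higher, namely SHH, and 5 lower, with a median of -1.73, and FERD3L had 0 reads in all 4 libraries. Eye and neural genes had 1 of 12 called higher, the neuronal gene STMN2 with 1865 and 79 reads, and 8 lower, among them the pigment gene DCT with 180 and 511 reads, while SOX1 differed by 0.0043. Pluripotency genes had 3 of 6 called higher and 0 lower, with a median of 1.45, POU5F1 at 395 and 0 reads and TDGF1 at 195 and 3. Cardiomyocyte genes had 0 of 12 called higher and 5 lower, with MYBPC3 at 141 and 94 reads (ratio 0.274, 0.210 to 0.360), TNNI3 at a log2 difference of 0.08 and PLN at 0.0027. Of 3 long noncoding neighbours, LINC00261 was called higher and 0 lower, and HNF4A-AS1 differed by 0.26. The same shares of all genes, 6.43% higher and 5.63% lower, stand beside each of these counts. SHH, LINC00261 and 2 of the 3 pluripotency genes called higher passed the limit of 4 reads through the RA library alone. The part of any of these cell types in the level of the 9 genes was not tested.

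**Figure D5:**
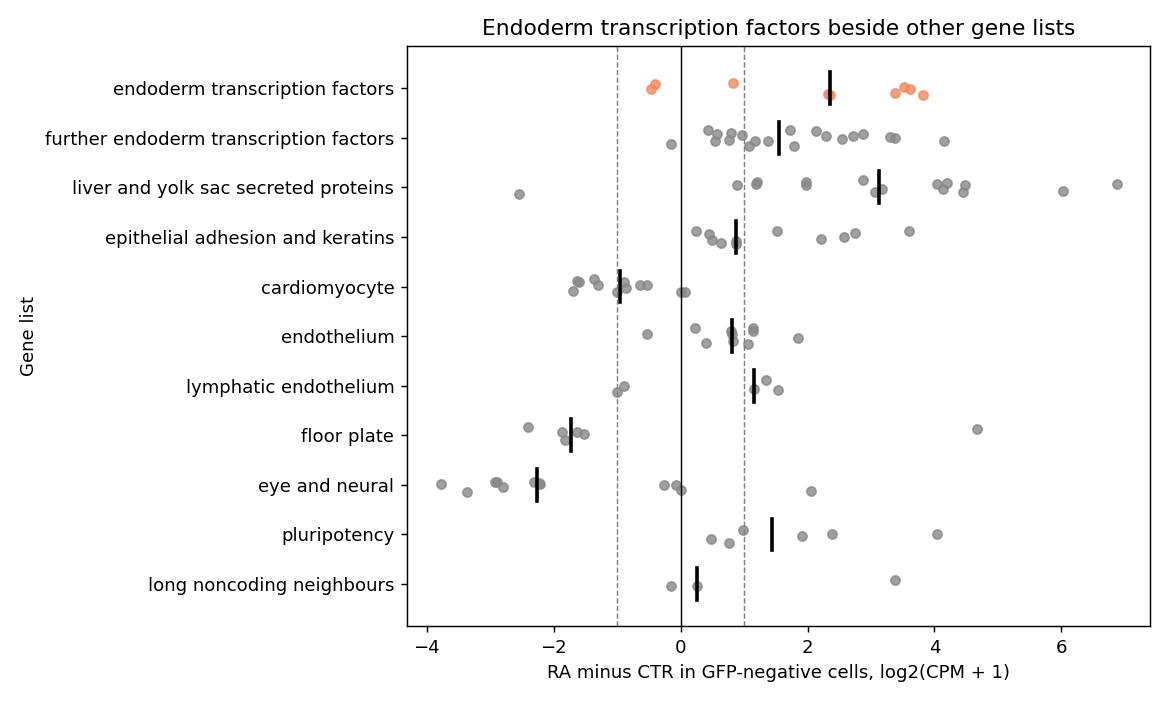
RA minus CTR difference in GFP-negative cells in log2(CPM + 1) (x axis) for the 9 endoderm transcription factors (orange) and the genes of 10 other lists (grey, y axis), 1 point per gene with at least 4 reads, a black bar at the median and dashed lines at 2-fold. The median was 2.36 for the 9 factors, 3.12 for secreted proteins, 1.55 for further endoderm factors and -2.27 for eye and neural genes.

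The genes with the most similar profile over the 4 libraries were found among 12407 genes with at least 10 CPM in any library, by the root mean square distance between log2(CPM + 1) values centred on each gene's mean. With 4 libraries this is a description, and the 1 CPM pseudocount makes the profile of a low gene look flatter than its fold. For HNF4A the nearest were VIL1, the villin gene of brush borders (distance 0.16), TMPRSS2 (0.21) and PDX1 (0.23). For PDX1 they were IHH (0.07), GSTA1 (0.14) and CDHR5 (0.15), and for FOXA2 they were HOXA2 (0.06), SERPINA4 (0.08) and S100A9 (0.11). FOXA1 was nearest to SUCNR1 (0.10), CEACAM6 (0.26) and KRT4 (0.31).

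HNF4G and ONECUT1 shared their nearest genes, CRHBP, LYPD3 and ACSM3, at distances of 0.08 to 0.11 for HNF4G and 0.12 to 0.13 for ONECUT1. This holds on the log2(CPM + 1) scale and not in fold, since CRHBP was at 26.6 and 4.90 CPM in RA and CTR GFP-negative cells and at 4.43 CPM in CTR GFP-positive cells, where HNF4G and ONECUT1 were at 0.140 and 0.0698 CPM. FOXA3 lay near SLC39A11 (0.03), LMNA (0.03) and NBEAL2 (0.05), and SOX17 near AOX1 (0.06), COLEC12 (0.11) and UBASH3B (0.14). PROX1 lay near DENND5B (0.03), PACSIN1 (0.08) and PPP1R13B (0.13).

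The shallow CTR GFP-negative library limits what the controls can show. With every library thinned at random to 4371101 reads, RA GFP-negative cells kept 77 reads of FOXA1, 76 of HNF4A, 60 of PDX1, 36 of FOXA2, 22 of HNF4G and 17 of ONECUT1, against 2, 3, 1, 0, 1 and 0 in CTR GFP-negative cells. In the deeper CTR GFP-positive library these genes had 0, 0, 2, 0, 4 and 2 reads before thinning.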

How the data were processed

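RNA of 4 sorted populations of the NKX2.5:GFP hESC line was sequenced, with 1 library per condition. The authors trimmed reads with SICKLE, aligned them to a custom hg19 genome with GSNAP at unique locations only, sorted them with SAMtools 0.1.18, counted them per Ensembl gene with HTSeq-count 0.6.1p1 without strand in the intersection-nonempty mode, and deposited the raw counts. Reads shared with near-identical copies, as POU5F1, TDGF1 and GSTA1 have, are lost under such alignment, so that their counts are uncertain.

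Genes were named by Ensembl identifier (55538 of 60234 matched), and coordinates and exon lengths are those of GENCODE lifted to GRCh37. SPON1 of the listed genes and the neighbours PDX1-AS1 and FOXA3-AS1 were not analysed here. Counts were scaled with TMM factors (edgeR 4.0.16, R 4.3.3), between 0.951 and 1.07 over the 4 libraries. The number of genes with at least 4 reads was 18102 in the shallowest library and up to 24550 in the others. No test between conditions was run on these single libraries (an additive fit of treatment and fraction would leave 1 residual degree of freedom), and the intervals and the 3-read floor cover only counting error, as amplified reads are not independent molecules. The 9 genes, the lists and the motifs were chosen with earlier results of these data known. The text names all 9 genes, the 2 largest rises and the largest fall of each list in GFP-negative cells, and the 3 nearest profiles of each gene with at least 100 reads in any library, except that the largest fall of the floor plate list is not reported here. CDH5, CLEC14A, EGFL7, EMCN, ALB, TF, F10, FGG, DPPA4, CCL21, RELN and FERD3L were chosen after their values were seen. The alternatives were scaling by library size with and without mitochondrial genes, by upper quartile and by size factors of DESeq2 1.42.0, pseudocounts of 0.25 and 5 CPM, thinning, other filters and a 4-fold limit. The comparison was tested on simulated data. Promoter windows are from RefSeq (GRCh38.p14), and only the bases before each start were used. Plots used matplotlib 3.10.9 under Python 3.11.15.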

Additional observations from a re-analysis of the deposited data

Results flagged for a closer look

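The RA difference of FOXA3 and PROX1 had another sign in GFP-negative than in GFP-positive cells. The log2(CPM + 1) difference, RA minus CTR, was 0.82 in GFP-negative and -0.069 in GFP-positive cells for FOXA3, and -0.40 and 0.20 for PROX1. For FOXA3 the ratio in GFP-positive cells, 0.922 (0.578 to 1.47), has an interval that holds 1, so that no opposite direction is shown for it. For PROX1, 18.6% of all genes compared in GFP-negative cells and 69.9% in GFP-positive cells had a lower difference. As each condition has a single library, no test of the gap between fractions was made for either gene. Both signs of both genes were kept under the 4 other scalings, the 2 other pseudocounts and thinning, with ranges of 0.43 to 0.99 and -0.31 to -0.03 for FOXA3, and -0.55 to -0.32 and 0.13 to 0.36 for PROX1.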

How the results depend on the processing

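The number of the 9 genes at least 2-fold apart depended on the filter where levels were low. With at least 10 CPM required in either library, it went from 6 to 3 for RA against CTR in GFP-negative cells, from 1 to 0 for RA against CTR in GFP-positive cells and from 9 to 4 for GFP-positive against GFP-negative cells with RA, since fewer genes were compared. For RA against CTR in GFP-positive cells, the number was 4 with a pseudocount of 0.25 CPM, 0 with 5 CPM, 2 in thinned libraries and 0 with a 4-fold limit. For GFP-positive against GFP-negative cells of the control, it was 1 in place of 2 with a 4-fold limit. The other alternatives kept each number within 1.5 times. Of the log2 differences of single genes under the scalings, pseudocounts and thinning, 175 stayed within counting error of the reported value, 41 moved further with the same sign and 1 changed sign, that of HNF4G between the control libraries (4 and 1 reads), which became 0.0068 in thinned libraries. The median difference of all genes between RA and CTR GFP-negative cells was 0.16 with TMM, 0.04 with library size alone and 0.02 with library size without mitochondrial genes. No analysis paired by culture was run. For the 4 genes compared in both cultures, the GFP-positive minus GFP-negative log2 difference was -2.57 (RA) and -2.70 (CTR) for SOX17, 2.59 and 1.99 for PROX1, -1.31 and -0.42 for FOXA3, and -1.96 and -0.09 for HNF4G.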
